A study of Mus musculus with 16 samples.

Results

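The genes described here make cholesterol and fatty acids or control that production. They comprise 14 enzymes of sterol synthesis, 5 genes of the SREBP control circuit and 14 enzymes of fatty acid synthesis, elongation, desaturation and activation, 33 genes in all. A probe was counted where the platform annotation named exactly 1 of these symbols, which gave 56 of 38467 probes for 32 of the 33 genes. Acsl1 had no such probe and is not analysed here. The sterol enzymes had 23 probes, the control genes 11 and the 13 measured fatty acid enzymes 22.

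RNA came from 3T3-L1 cells, a clonal line of mouse preadipocytes that hormones can turn into fat cells, and each of 4 groups had 4 biological replicates. The groups were dex at 2 h, DMSO at 2 h, dex at 36 h and DMSO at 36 h, where dex is dexamethasone, a glucocorticoid drug, and DMSO its vehicle. The labels name no other agent, and the sources used here state no dose. Each of the 16 samples was labelled with Cy5 and hybridised against a Cy3-labelled pool of the samples, and the deposited value is a log ratio of sample over pool, taken as log2. A ratio to a pool has no level that can be set against another gene's, and the presence of defining markers of the cell type could not be checked from it.

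Sterols are made from acetyl-CoA through mevalonate, isoprenoid diphosphates, squalene and lanosterol. Fatty acids are made from the same precursor by acetyl-CoA carboxylase and fatty acid synthase, and then elongated, desaturated and activated to acyl-CoA. Many enzymes of both branches are transcribed under SREBP transcription factors, which are held in the endoplasmic reticulum with the escort protein SCAP by INSIG proteins when sterols are plentiful. In fat cells the fatty acid branch supplies stored triglyceride, and glucocorticoid is part of the usual hormone mixture that starts the differentiation of 3T3-L1 cells.

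Promoters are printed for 5 members on which the results turn, Mvd, Insig1, Fasn and Fads2 for their changes at 36 h and Hmgcs1 as the member whose window matched the sterol element. They are RefSeq windows of 300 bases in assembly GRCm38.p6, from 250 bases before to 50 after the gene start, written in the direction of the gene. Capitals mark the CCAAT box or its complement ATTGG and, in Hmgcs1, the sterol element TCACNCCAC. The window lay at chr8:122443373-122443672 on the minus strand for Mvd and at chr5:28071162-28071461 on the plus strand for Insig1. It lay at chr11:120824498-120824797 on the minus strand for Fasn, at chr19:10101454-10101753 on the minus strand for Fads2 and at chr13:119690101-119690400 on the plus strand for Hmgcs1.
Mvd: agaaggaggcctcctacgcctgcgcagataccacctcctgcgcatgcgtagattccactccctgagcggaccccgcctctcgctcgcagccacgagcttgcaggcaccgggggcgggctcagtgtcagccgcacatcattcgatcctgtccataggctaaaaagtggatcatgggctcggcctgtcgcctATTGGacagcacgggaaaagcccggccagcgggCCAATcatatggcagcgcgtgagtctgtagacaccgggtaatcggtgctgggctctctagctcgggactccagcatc
Insig1: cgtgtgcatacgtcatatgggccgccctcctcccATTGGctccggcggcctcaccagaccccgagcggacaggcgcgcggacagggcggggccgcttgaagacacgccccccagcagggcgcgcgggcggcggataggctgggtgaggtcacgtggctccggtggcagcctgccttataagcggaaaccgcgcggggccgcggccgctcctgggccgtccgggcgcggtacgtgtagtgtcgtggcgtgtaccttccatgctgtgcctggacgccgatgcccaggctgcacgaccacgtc
Fasn: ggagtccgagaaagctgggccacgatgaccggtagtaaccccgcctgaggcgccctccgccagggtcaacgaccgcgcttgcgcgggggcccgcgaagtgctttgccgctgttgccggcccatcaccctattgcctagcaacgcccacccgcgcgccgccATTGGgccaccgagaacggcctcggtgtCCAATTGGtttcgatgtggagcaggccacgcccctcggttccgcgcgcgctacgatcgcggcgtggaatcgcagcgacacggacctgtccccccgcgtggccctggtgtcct
Fads2: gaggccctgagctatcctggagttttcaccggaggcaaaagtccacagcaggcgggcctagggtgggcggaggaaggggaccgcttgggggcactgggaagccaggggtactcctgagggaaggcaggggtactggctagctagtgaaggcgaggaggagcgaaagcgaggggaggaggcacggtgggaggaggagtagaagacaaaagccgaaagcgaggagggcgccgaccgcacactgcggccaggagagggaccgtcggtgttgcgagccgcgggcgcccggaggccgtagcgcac
Hmgcs1: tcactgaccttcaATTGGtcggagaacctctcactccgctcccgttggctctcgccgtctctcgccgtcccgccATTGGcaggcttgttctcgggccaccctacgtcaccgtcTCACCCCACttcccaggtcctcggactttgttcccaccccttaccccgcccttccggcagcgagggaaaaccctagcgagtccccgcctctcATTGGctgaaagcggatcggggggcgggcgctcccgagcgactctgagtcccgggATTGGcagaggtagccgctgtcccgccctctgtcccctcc

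RefSeq windows were matched by symbol to 26 of the 32 measured members, which had 35 of them. The CCAAT box, to which NF-Y binds, was found on either strand in 22 of the 35 windows (62.9%) and in 37.4% of all 32851 windows. The GC box GGGCGG, to which Sp1 binds, was found in 25 (71.4%), against 35.7% of all windows. The sterol element matched in 1 window (2.86%), that of Hmgcs1, against 1.24% of all. The glucocorticoid response element matched in 0 of the 35 windows and in 0.0396% of all, and its shorter core AGAACA in 7 (20%), against 19% of all. The CCAAT box was present in 11 of 14 windows of sterol enzymes, 5 of 10 of control genes and 6 of 11 of fatty acid enzymes. These matches describe letters in a window and no binding was measured, and GC boxes in the other strand, CCGCCC, were counted too. Only exact matches inside the windows were counted, so sites with other letters or outside the windows would be missed. The 4 motifs spelled out here can overlap one another, as a CCAAT box and its complement do in the Fasn window.

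Array medians lay between -0.0106 and 0.00832, 131 values were missing on 3 arrays, and none of them belonged to a member probe. The treatment was visible in the 4 check genes, Fkbp5, Tsc22d3, Per1 and Glul, all of which rose at 2 h (100%, against 3.18% of all genes). At 36 h Fkbp5, Tsc22d3 and Glul rose and Per1 did not pass (75%, against 11.7% of all genes). Fkbp5, a glucocorticoid receptor co-chaperone, rose by 2.36 ± 0.12 log2 units at 2 h and by 3.11 ± 0.12 at 36 h (SE, n = 4 per group). The arrays of 2 h were noisier. The SD of an array's residuals from its group mean over all probes was 0.168 to 0.435 at 2 h and 0.108 to 0.205 at 36 h, and 1 pooled variance per probe stands behind each SE. The 4 arrays of dex at 36 h were unevenly alike. Across all probes replicates 1 and 3 correlated at r = 0.794 and the other pairs at 0.16 to 0.473, while those of DMSO at 36 h correlated at 0.527 to 0.684. In 18 of the 23 sterol probes (78.3%) replicates 1 and 3 were the highest pair of the 4 dex arrays, compared with 29.1% of all probes. The share was 14 of 22 (63.6%) among fatty acid probes and 6 of 11 (54.5%) among control probes. Results at 36 h that rest on these replicates are therefore also given without them for some members, but not for genes outside the members. The part of the split in each result was not tested further.

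Few of the 32 members passed the test of dex against DMSO, and none of them passed at both times. At 2 h Acsl4 and Elovl5, both of fatty acid metabolism, rose and 0 members fell. These 2 genes are 6.25% of the members, against 3.18% of all 19640 genes that passed at this time (1.97% higher and 1.21% lower). At 36 h Mvd, Dhcr7 and Fasn rose and Fads2 fell, 4 members or 12.5%, against 11.7% of all genes (6.88% higher and 4.96% lower), so the share of members that passed lay close to the background. Without replicates 1 and 3 of dex at 36 h, 5 members passed, with Mvd and Fasn higher and Fads1, Fads2 and Scd2 lower, against 4.54% of all genes. Without replicate 2 of dex at 36 h alone 10 members passed (15.7% of all genes), without replicates 2 and 4 together 20 did (21.5% of all genes), and with array weights 26 did (46.3% of all genes). A gene passed where at least 1 of its probes had an adjusted p under 0.05 in limma's moderated test with Benjamini-Hochberg adjustment over all 38467 probes. In RNA of whole cultures, fewer cells of a type and less RNA per cell cannot be told apart.

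By branch, at 36 h the median log2 change of the quoted probes, 1 per gene, was 0.22 over the 14 sterol enzymes, with 11 positive and 3 negative. It was 0.18 over the 5 control genes and -0.029 over the 13 fatty acid enzymes, with 6 positive and 7 negative, and -0.0017 over all genes. At 2 h the same medians were -0.072 for sterol enzymes, -0.11 for control genes, -0.024 for fatty acid enzymes and -0.012 for all genes. Without replicates 1 and 3 of dex at 36 h the sterol median was -0.025, with 7 positive and 7 negative, and the fatty acid median was 0.016. Without replicates 2 and 4 the sterol median was 0.43, with 11 positive and 3 negative, and the fatty acid median was 0.074. The size of the sterol median at 36 h thus depended on which dex arrays were included. The medians also depended on the choice of probe. Over all probes and all arrays, the 36 h medians were 0.16 for sterol enzymes (15 of 23 probes positive), 0.045 for control genes and 0.0041 for fatty acid enzymes. At 2 h they were -0.053, -0.12 and 0.085, so the fatty acid median was positive at both times.

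**Figure D1:**
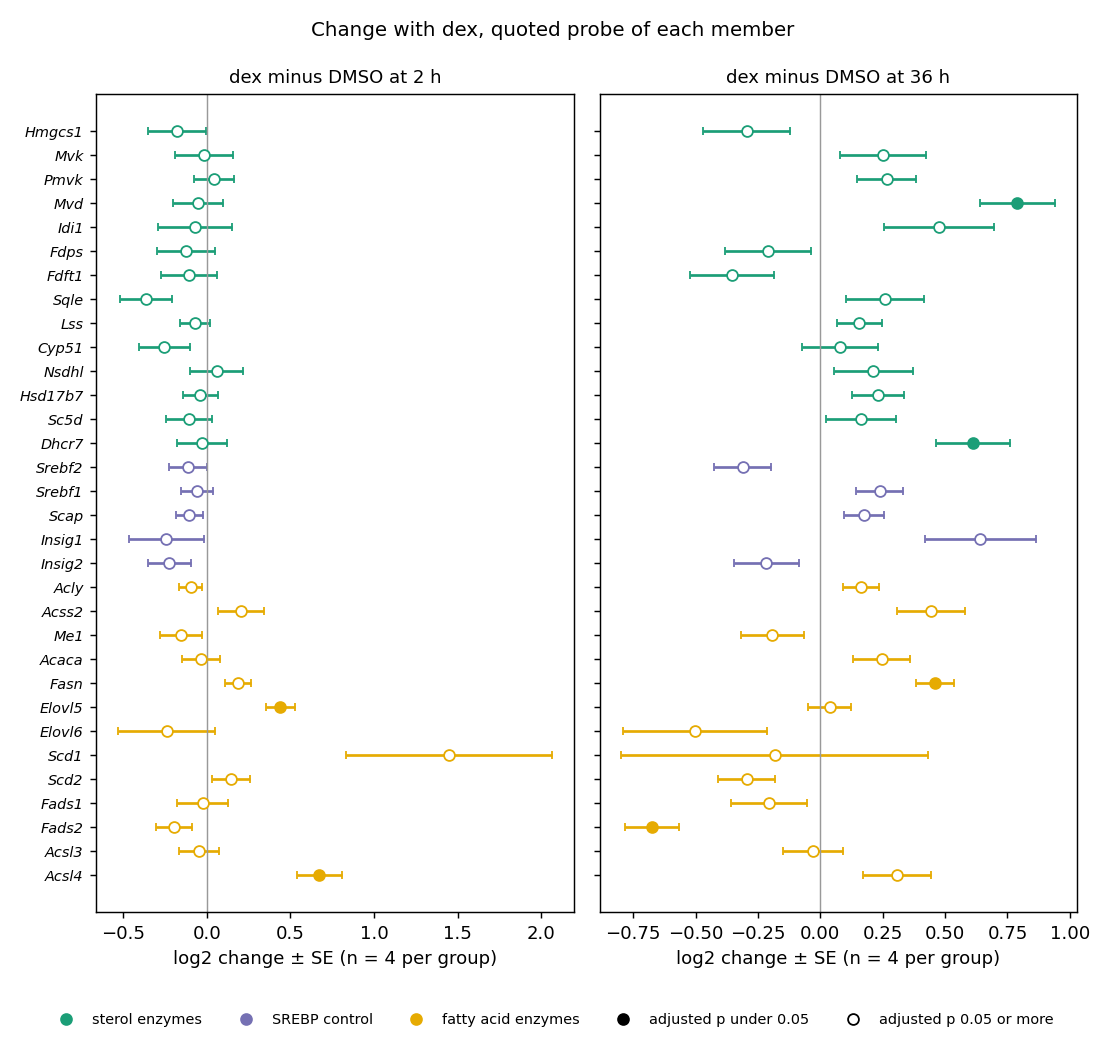
Log2 change with dex at 2 h (left) and at 36 h (right) for the quoted probe of each measured member, with bars of 1 SE (n = 4 arrays per group) and filled points where the adjusted p was under 0.05. At 36 h Mvd lies farthest to the right at 0.79 and Fads2 farthest to the left at -0.68.

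Among the control genes, none of the 5 passed at either time. Insig1, whose product retains the SREBP complex in the endoplasmic reticulum, had log2 ratios of 0.79, -0.43, 0.81 and -0.28 in dex replicates 1 to 4 at 36 h, against -0.45, -0.43, -0.36 and -0.43 in DMSO, and array values below keep this order of replicates. Replicates 1 and 3 of dex stood more than 1 unit above every DMSO array, while replicates 2 and 4 lay at or near the DMSO values. The change was 0.64 ± 0.22 (adjusted p = 0.0922), and the other 2 probes of Insig1 gave 0.65 each. Without replicates 1 and 3 it was 0.061 (adjusted p = 1 in limma), whereas Insig1 passed without replicate 2 at 0.86 (adjusted p = 0.0124) and without replicate 4 at 0.81 (adjusted p = 0.0341). At 2 h Insig1 had 0.058, -0.062, -0.18 and -0.11 in dex cells and 0.26, 0.20, 0.10 and 0.10 in DMSO cells, with all dex arrays below all DMSO arrays as in 2.81% of all probes. This early difference, -0.24 ± 0.22, did not pass (adjusted p = 0.755).

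Insig2, the second INSIG gene, did not share the pattern of Insig1. Its quoted probe had 0.0056, -0.045, -0.15 and -0.50 in dex and 0.0076, 0.12, 0.040 and -0.0039 in DMSO at 36 h, and the groups overlapped (change -0.22 ± 0.13, adjusted p = 0.385). The other 3 Insig2 probes gave 0.045, -0.22 and 0.016. At 2 h the change of the quoted probe was -0.22 ± 0.13 (adjusted p = 0.583), from -0.059, -0.12, -0.068 and -0.21 in dex and 0.48, 0.18, -0.12 and -0.087 in DMSO.

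The 2 SREBP genes pointed in opposite directions at 36 h, and neither passed. Srebf1, which encodes SREBP1, the form tied mainly to fatty acid synthesis, had 0.18, 0.26, 0.19 and 0.22 in dex and 0.0022, -0.15, 0.060 and -0.025 in DMSO. All dex arrays of Srebf1 lay above all DMSO arrays and close together, as did 13% of all probes at this time, with a change of 0.24 ± 0.096 (adjusted p = 0.151). Srebf2, which encodes SREBP2, the form tied mainly to sterol synthesis, had -0.27, 0.046, -0.47 and -0.021 in dex and 0.15, 0.24, 0.068 and 0.065 in DMSO, all dex arrays below all DMSO arrays, as in 13.8% of all probes. Its change was -0.31 ± 0.11 (adjusted p = 0.114), but its other probe gave 0.022, so the probes disagreed. Without replicate 2 of dex the quoted probe of Srebf2 passed at -0.39 (adjusted p = 0.0446 in limma). Without replicates 1 and 3 it gave -0.12 and did not pass. Srebf2 also passed under quantile or scale normalization, and Srebf1 with only the 8 arrays of 36 h. At 2 h the changes were -0.057 ± 0.096 for Srebf1 and -0.11 ± 0.11 for Srebf2, each with overlapping groups.

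For Srebf1 at 2 h the arrays gave -0.10, 0.093, 0.078 and -0.13 in dex and 0.32, -0.062, 0.0066 and -0.11 in DMSO. For Srebf2 they gave 0.15, 0.10, 0.099 and 0.012 in dex and 0.47, 0.051, 0.095 and 0.21 in DMSO. Scap, the escort of both SREBPs, had 0.29, 0.14, 0.29 and 0.36 in dex and 0.0036, 0.075, 0.16 and 0.13 in DMSO at 36 h. Its groups overlapped at both times, with changes of 0.18 ± 0.081 at 36 h (adjusted p = 0.221) and -0.11 ± 0.081 at 2 h (adjusted p = 0.689). The 2 h arrays of Scap gave 0.060, 0.18, 0.078 and 0.12 in dex and 0.18, 0.30, 0.038 and 0.34 in DMSO.

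Of the 14 sterol enzymes, none passed at 2 h and 2 rose at 36 h. Mvd, mevalonate diphosphate decarboxylase, which makes isopentenyl diphosphate, had 0.73, 0.15, 1.04 and 0.29 in dex and -0.28, -0.25, -0.16 and -0.27 in DMSO at 36 h. All dex arrays lay above all DMSO arrays, replicates 1 and 3 farthest. Mvd rose 1.73-fold, a log2 change of 0.79 ± 0.15 (adjusted p = 0.00353). Without replicates 1 and 3 the change was 0.46 and still passed (adjusted p = 0.0312 in limma). At 2 h Mvd had 0.086, 0.067, 0.0052 and 0.13 in dex and 0.23, 0.25, 0.14 and -0.12 in DMSO, overlapping, with a change of -0.053 ± 0.15 (adjusted p = 0.942).

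Dhcr7, the reductase that makes cholesterol from its immediate precursor, had 0.48, 0.056, 0.71 and -0.11 in dex and -0.33, -0.44, -0.30 and -0.23 in DMSO at 36 h. The dex arrays again lay above all DMSO arrays, and replicates 1 and 3 were highest. Dhcr7 rose 1.53-fold, a log2 change of 0.61 ± 0.15 (adjusted p = 0.0176). Without replicates 1 and 3 the change was 0.30 and did not pass (adjusted p = 0.31 in limma), and the call also ended without replicate 1 of dex (0.55, adjusted p = 0.0723), without its replicate 3 (0.47, adjusted p = 0.0564) or without replicate 2 of DMSO (0.57, adjusted p = 0.0642). Its 2 h arrays, 0.24, -0.017, 0.11 and 0.066 in dex and 0.30, -0.011, -0.034 and 0.25 in DMSO, overlapped (change -0.029 ± 0.15).

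The other 12 sterol enzymes did not pass at 36 h, and their quoted changes ran from -0.35 to 0.48. Idi1, which isomerises isopentenyl diphosphate, had 0.77, -0.27, 0.97 and -0.17 in dex and -0.29, -0.16, -0.059 and -0.087 in DMSO, with replicates 1 and 3 of dex far above and replicates 2 and 4 within the DMSO range. The change of Idi1 was 0.48 ± 0.22 (adjusted p = 0.227) and, without replicates 1 and 3, -0.069. The same pair of arrays was highest in Mvk, Pmvk, Sqle, Lss, Cyp51, Nsdhl, Hsd17b7 and Sc5d, the kinases of mevalonate, squalene epoxidase and the enzymes from lanosterol formation to the late sterols. Changes of the quoted probes of these 8 genes were 0.077 to 0.27, and their adjusted p-values were 0.201 to 0.902. Another probe was negative for Cyp51 (-0.011), Lss (-0.038), Nsdhl (-0.10) and Sc5d (-0.081), so the probes of these genes disagreed in sign. Further probes of Sqle (0.20) and Nsdhl (0.20 and 0.31) were positive.

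Hmgcs1, Fdps and Fdft1 went the other way on these arrays. Hmgcs1, the synthase that makes the precursor of mevalonate, had -0.67, 0.055, -0.92 and -0.69 in dex and -0.27, -0.15, -0.32 and -0.31 in DMSO (change -0.30 ± 0.17, adjusted p = 0.372). Fdps, farnesyl diphosphate synthase, had -0.73, -0.023, -1.13 and -0.47 in dex and -0.40, -0.31, -0.37 and -0.44 in DMSO (change -0.21 ± 0.17, adjusted p = 0.57). Fdft1, squalene synthase, had -0.43, 0.067, -0.73 and -0.068 in dex and 0.062, 0.25, -0.0019 and -0.049 in DMSO (change -0.35 ± 0.17, adjusted p = 0.241). In all 3 genes replicate 3 of dex was lowest and replicate 2 highest, and the groups overlapped. The 3 probes of Fdps disagreed in sign, with -0.39 and 0.016 for those not quoted. Within the same pathway, then, replicate 3, the highest dex array for Mvd, Idi1 and Dhcr7, was the lowest for Hmgcs1, Fdps and Fdft1. Without replicate 2 of dex alone, Idi1 passed at 0.67 (adjusted p = 0.0466 in limma) and Hmgcs1 at -0.50 (adjusted p = 0.0244 in limma). Without replicates 1 and 3 Hmgcs1 gave -0.056 and did not pass.

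**Figure D2:**
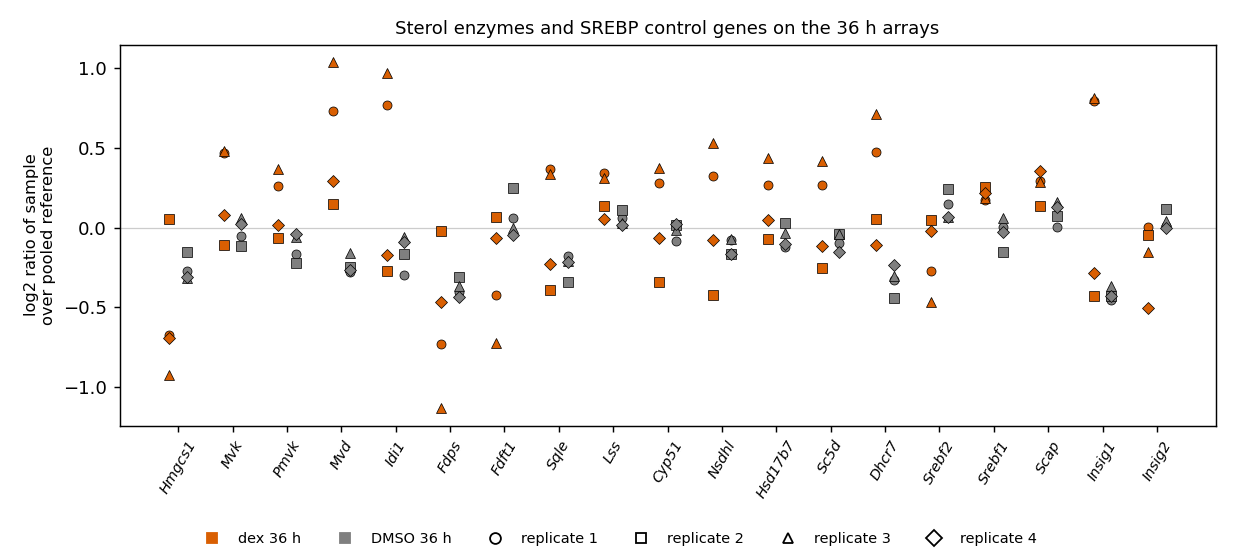
Log2 ratio of sample over pool on the 8 arrays of 36 h, quoted probe of the 14 sterol enzymes and 5 control genes. Dex is in orange left of DMSO in grey, with 1 marker shape per replicate number (numbers were not taken to pair samples). The circles and triangles of dex (replicates 1 and 3) are the top pair for Mvd, Idi1, Dhcr7 and Insig1, while for Fdft1 and Fdps they are the bottom pair.

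At 2 h 12 of the 14 sterol enzymes had a negative quoted change and 2 a positive one, from -0.36 to 0.058, with 0 passing. At an unadjusted p under 0.05 in limma there was 1 of the 14, against 2873 of all 19640 genes. That 1 was Sqle, squalene epoxidase, with -0.37, -0.20, -0.18 and -0.23 in dex and 0.41, -0.051, -0.071 and 0.20 in DMSO, all dex arrays below all DMSO arrays as in 2.81% of all probes. Its change was -0.36 ± 0.16 (adjusted p = 0.4), and its other probe gave -0.18. The DMSO group of 2 h was itself uneven, since its replicate 1 had a sterol median of 0.311 and the other replicates 0.012 to 0.057. The dex arrays of 2 h had sterol medians of -0.017 to 0.11.

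**Figure D3:**
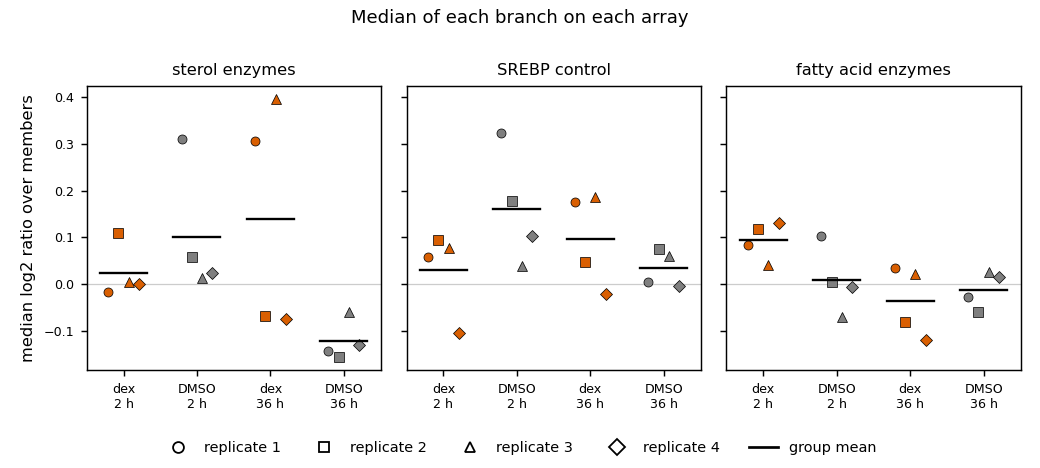
Median log2 ratio over the quoted probes of each branch on each of the 16 arrays, dex left of DMSO at each time, with the mean of the 4 arrays as a line. The sterol medians of dex at 36 h fall in pairs, 0.31 and 0.40 against -0.068 and -0.075, and those of DMSO at 36 h lie between -0.16 and -0.059.

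Among the 13 measured fatty acid enzymes, Fasn rose and Fads2 fell at 36 h, and neither call rested on replicates 1 and 3. Fasn, fatty acid synthase, had 0.27, 0.41, 0.36 and 0.42 in dex and -0.088, -0.15, -0.035 and -0.11 in DMSO, the dex arrays close together and all above DMSO. It rose 1.37-fold (log2 change 0.46 ± 0.077, adjusted p = 0.00119) and by 0.51 without replicates 1 and 3 (adjusted p = 0.0074 in limma). At 2 h Fasn had 0.39, 0.28, 0.32 and 0.48 in dex and 0.011, 0.26, 0.28 and 0.18 in DMSO. The 2 h groups did not overlap, as in 3.07% of all probes in this direction, but the change of 0.19 ± 0.077 did not pass (adjusted p = 0.366). At 36 h minus 2 h Fasn differed by -0.0057 ± 0.077 in dex cells (adjusted p = 0.988) and by -0.28 ± 0.077 in DMSO cells (adjusted p = 0.135), and neither passed.

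Fads2, the desaturase that starts the synthesis of long polyunsaturated fatty acids, had -0.20, -0.76, -0.17 and -0.38 in dex and 0.36, 0.36, 0.21 and 0.26 in DMSO at 36 h. All dex arrays lay below all DMSO arrays, with replicate 2 lowest. Fads2 fell 1.6-fold (log2 change -0.68 ± 0.11, adjusted p = 0.000744), and its other probe also passed at -0.35 (adjusted p = 0.0288). Without replicates 1 and 3 the change was -0.87 (adjusted p = 0.000261 in limma). At 2 h Fads2 had -0.093, -0.023, -0.15 and -0.064 in dex and 0.18, 0.092, 0.082 and 0.11 in DMSO. All dex arrays lay below all DMSO arrays, as in 2.81% of all probes. The change of -0.20 ± 0.11 did not pass (adjusted p = 0.551), and on the other probe, at -0.15, the groups overlapped.

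The other desaturases did not pass at 36 h. Fads1, which acts after Fads2 in the same pathway, had 0.16, -0.50, 0.44 and -0.24 in dex and 0.25, 0.15, 0.24 and 0.040 in DMSO (change -0.21 ± 0.15, adjusted p = 0.51). Scd2, a stearoyl-CoA desaturase, had 0.030, -0.51, -0.15 and -0.46 in dex and -0.0094, 0.15, 0.0099 and -0.061 in DMSO (change -0.30 ± 0.11, adjusted p = 0.136). In both genes replicates 2 and 4 of dex lay below every DMSO array, and without replicates 1 and 3 the changes were -0.54 for Fads1 (adjusted p = 0.0103 in limma) and -0.51 for Scd2 (adjusted p = 0.0154 in limma). Scd2 also passed without replicate 1 alone (-0.40, adjusted p = 0.0492 in limma).

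Scd1, the main stearoyl-CoA desaturase of adipose tissue, had -0.18, 0.069, -0.14 and -0.023 in dex and 0.065, 0.070, 0.14 and 0.18 in DMSO at 36 h, overlapping (change -0.18 ± 0.62, adjusted p = 0.963). This SE rests on the pooled variance, which includes a DMSO array of 2 h at -4.10. Within the 36 h groups the SD was 0.11 in dex and 0.057 in DMSO. At 2 h it had 0.18, 0.30, 0.22 and 0.33 in dex and -0.041, -0.30, -0.32 and -4.10 in DMSO. All dex arrays lay above all DMSO arrays, as in 3.07% of all probes. But replicate 4 of DMSO was lower than the others by more than 3 units, and the change of 1.45 ± 0.62 did not pass (adjusted p = 0.39). Without that array Scd1 was higher in dex at 2 h by 0.48 and passed (adjusted p = 0.00561 in limma), and the dex effect at 36 h minus that at 2 h was -0.66 (adjusted p = 0.00652). With only 1 probe for Scd1, no other probe could be set against this value.

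In the synthesis steps before Fasn, Acaca, acetyl-CoA carboxylase, had 0.39, -0.081, 0.49 and 0.15 in dex and 0.0014, -0.082, 0.025 and 0.019 in DMSO at 36 h. Replicates 1 and 3 were again highest and the groups overlapped (change 0.25 ± 0.11, adjusted p = 0.225). The other probes of Acaca gave -0.18 and -0.14, so its direction was not settled. The quoted probe passed without replicate 2 of dex (0.35, adjusted p = 0.0383 in limma), but without replicates 1 and 3 it gave 0.043. At 2 h the quoted probe had 0.26, -0.078, 0.079 and 0.24 in dex and 0.20, 0.25, 0.15 and 0.061 in DMSO (change -0.037 ± 0.11). Acss2, which makes acetyl-CoA from acetate, had 0.45, 0.14, 0.71 and 0.36 in dex and -0.029, -0.17, 0.071 and 0.014 in DMSO, all dex arrays above all DMSO arrays. The change of Acss2 was 0.44 ± 0.14, just short of the threshold (adjusted p = 0.0559). Acss2 passed without replicate 2 of dex at 36 h (0.54, adjusted p = 0.0223 in limma). It also passed at an unchanged 0.44 without replicate 1 or 4 of DMSO at 2 h (adjusted p = 0.0339 and 0.0214). Without replicates 1 and 3 of dex at 36 h Acss2 gave 0.28 and did not pass (adjusted p = 0.64 in limma). Acly, which makes acetyl-CoA from citrate, gave 0.16 ± 0.071 on its quoted probe and -0.12 on the other, and Me1, malic enzyme, gave -0.19 ± 0.13, and neither passed.

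Acsl4 and Elovl5 were the 2 members that rose at 2 h. Acsl4, the acyl-CoA synthetase that prefers arachidonate, had 0.084, 0.30, 0.25 and 0.24 in dex and -0.18, -0.56, -0.49 and -0.59 in DMSO on its quoted probe, with no overlap. It rose 1.6-fold (log2 change 0.67 ± 0.14, adjusted p = 0.0114). All 5 probes of Acsl4 gave positive changes at 2 h, the second passing at 0.63 (adjusted p = 0.0221) and the others at 0.51, 0.47 and 0.48 not passing. At 36 h Acsl4 had 0.20, -0.47, 0.022 and -0.30 in dex and -0.59, -0.38, -0.28 and -0.53 in DMSO, overlapping (change 0.31 ± 0.14, adjusted p = 0.202).

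Elovl5, an elongase of polyunsaturated fatty acids, had -0.066, 0.0090, -0.023 and -0.044 in dex and -0.34, -0.39, -0.45 and -0.70 in DMSO at 2 h, again with no overlap. It rose 1.36-fold (log2 change 0.44 ± 0.087, adjusted p = 0.01), a call lost under quantile or scale normalization and with only the 8 arrays of 2 h. At 36 h its values were -0.18, -0.056, -0.14 and -0.35 in dex and -0.30, -0.17, -0.16 and -0.25 in DMSO, and the change was 0.037 ± 0.087. For neither gene did the difference between the times pass, at -0.37 ± 0.19 for Acsl4 (adjusted p = 0.427) and -0.40 ± 0.12 for Elovl5 (adjusted p = 0.123).

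Elovl6, which lengthens saturated fatty acids made by Fasn, varied most among the dex arrays of 36 h, at -0.89, 0.046, -1.73 and -0.12, against -0.19, -0.13, -0.18 and -0.19 in DMSO. Replicates 1 and 3 were its lowest arrays, and the change of -0.50 ± 0.29 did not pass (adjusted p = 0.355). Acsl3, an acyl-CoA synthetase of the endoplasmic reticulum and lipid droplets, gave -0.047 ± 0.12 at 2 h and -0.029 ± 0.12 at 36 h. Neither time passed for Acsl3.

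**Figure D4:**
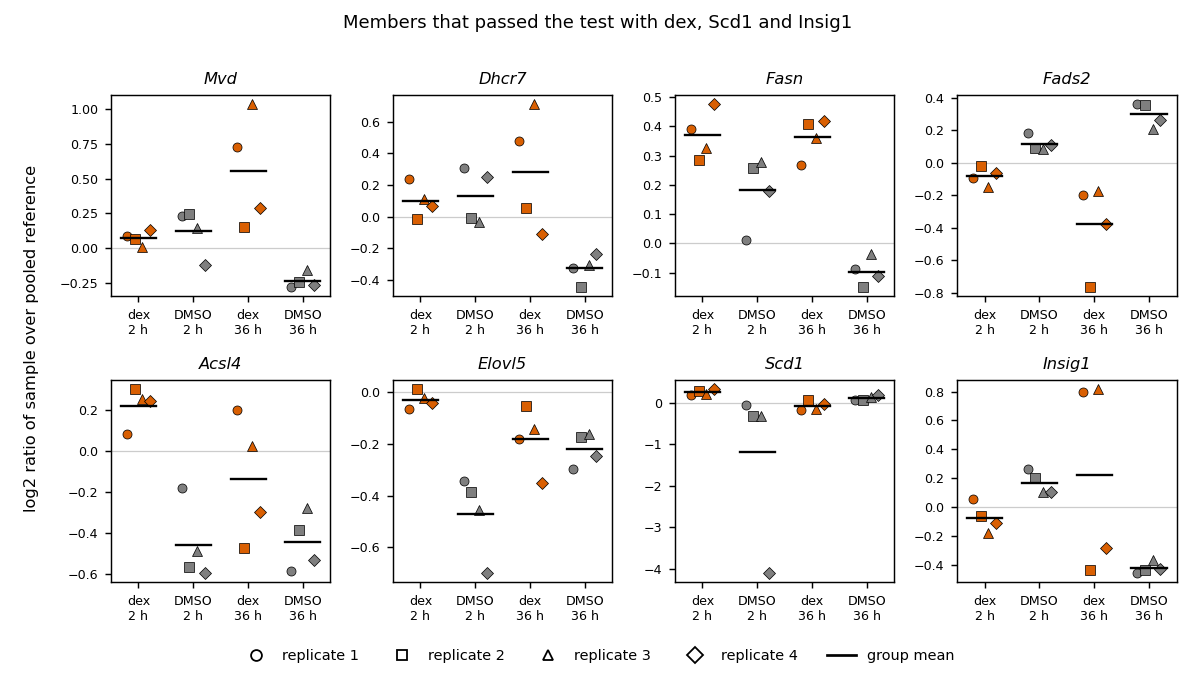
Log2 ratio of sample over pool on all 16 arrays for the 6 members that passed with dex at 2 h or 36 h and for Scd1 and Insig1, dex left of DMSO at each time, with 1 marker shape per replicate and a line at the group mean. Fasn and Fads2 separate all dex from all DMSO arrays at 36 h, in Insig1 replicates 2 and 4 of dex lie among or near DMSO, and replicate 4 of DMSO at 2 h lies at -4.10 for Scd1.

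The design also allows a comparison of 36 h with 2 h within each treatment, in which time in culture moves with the time of treatment. In DMSO cells 0 of 32 members passed, against 1.26% of all genes. The quoted changes of 13 of the 14 sterol enzymes were negative, with a median of -0.26, while that of all genes was -0.021. On 7 of the 23 sterol probes all 36 h DMSO arrays lay below all 2 h DMSO arrays, and on 1 above, as against 6.44% and 4.08% of all probes. Insig1 had the lowest value at -0.59 ± 0.22 (adjusted p = 0.304), and Dhcr7 gave -0.45 ± 0.15 (adjusted p = 0.213). The fatty acid median was 0.011, with 7 positive and 6 negative.

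In dex cells 0 members passed between the times either, against 2.43% of all genes. The medians of dex at 36 h minus dex at 2 h were 0.13 for sterol enzymes and -0.15 for fatty acid enzymes. DMSO at 36 h was the group with the lowest mean for 7 of the 14 sterol enzymes, and dex at 36 h that with the highest mean for 7. The mean of the array medians over the sterol enzymes was 0.14 ± 0.25 in dex and -0.12 ± 0.044 in DMSO at 36 h, and 0.024 ± 0.058 in dex and 0.10 ± 0.14 in DMSO at 2 h (SD, n = 4 each). The dex mean at 36 h was thus within its own SD of the 2 h groups.

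The dex effect at 36 h minus that at 2 h passed for 0 of 32 members, against 3.48% of all genes. Mvd came nearest at 0.84 ± 0.21 (adjusted p = 0.0528), followed by Elovl5 and by Fads2 at -0.48 ± 0.15 (adjusted p = 0.141), and Insig1 gave 0.88 ± 0.32 (adjusted p = 0.204). For Mvd the difference passed without replicate 4 of DMSO at 2 h (0.92, adjusted p = 0.0271) and without replicate 2 or 4 of dex at 36 h (0.98 and 0.93, adjusted p = 0.0131 and 0.0356). Without the same replicates of dex at 36 h it also passed for Insig1 (1.10 without replicate 2, adjusted p = 0.0432) and Dhcr7 (0.77 without replicate 4, adjusted p = 0.0473). With all 16 arrays as deposited it passed for none, whereas it passed for Mvd alone under quantile normalization, scale normalization or the mean of a gene's probes (7.15%, 7.17% and 2.9% of all genes), and for Mvd, Insig1, Sqle and Elovl5 with array weights (9.4% of all genes). The medians of this difference were 0.27 for sterol enzymes, 0.28 for control genes and -0.18 for fatty acid enzymes, against 0.015 for all genes.

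Other genes of the pathways were read from lists drawn up beside the members. At 36 h, of 11 measured further sterol genes 3 rose and 0 fell (27.3%, against 11.7% of all genes in either direction and 6.88% higher). These were Lbr, the lamin B receptor with sterol reductase activity, at 0.64 ± 0.11 (adjusted p = 0.00166), Ebp, a sterol isomerase, at 0.59 ± 0.11 (adjusted p = 0.0019), and Npc2, which carries cholesterol in the lysosome, at 0.51 ± 0.087 (adjusted p = 0.00146). The median of this list was 0.075.

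Of 8 measured genes of SREBP processing, the oxysterol receptors LXR and cholesterol efflux, 3 rose and 1 fell at 36 h (50%, against 11.7% of all genes). Abca1, the cholesterol exporter, rose by 0.64 ± 0.12 (adjusted p = 0.00227). Nr1h3, which encodes LXR alpha, rose by 0.57 ± 0.17 (adjusted p = 0.0481), and Lpcat3, a phospholipid acyltransferase, rose by 0.55 ± 0.076 (adjusted p = 0.000226). Mylip, an E3 ligase that degrades lipoprotein receptors, fell at 36 h (-0.82 ± 0.097, adjusted p = 5.28e-05) and already at 2 h (-0.59 ± 0.097, adjusted p = 0.00228). Abca1, Lpcat3 and Mylip are known targets of LXR, and the part of LXR in these changes was not tested. The call of Nr1h3 lay at the threshold and was lost in most fits that left out 1 array. These were the fits without any 1 array of dex at 2 h or of DMSO at 36 h, and without replicate 3 of DMSO at 2 h. It was also lost without replicate 1, 2 or 3 of dex at 36 h, for example without replicate 3 (0.44, adjusted p = 0.179).

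Of 24 measured further fatty acid genes 2 rose and 1 fell at 36 h (12.5%), a share close to the 11.7% of all genes. Elovl1, an elongase of very long chains, rose by 0.48 ± 0.087 (adjusted p = 0.00213) and Hacd2, a dehydratase of the elongation cycle, by 0.36 ± 0.084 (adjusted p = 0.0138). Acacb, the second acetyl-CoA carboxylase, which regulates fatty acid oxidation, fell (-0.35 ± 0.10, adjusted p = 0.0444). Acacb lost its call without single arrays of each group, for example without replicate 3 of dex at 36 h (-0.28, adjusted p = 0.159). Hacd2 lost its call without replicate 1 of dex (0.30, adjusted p = 0.0604) or of DMSO (0.34, adjusted p = 0.0518) at 36 h.

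Some cell type markers moved with dex at 36 h beside these genes, Fabp4 and Pdgfrb already at 2 h. Of 9 measured preadipocyte and fibroblast markers 5 fell, Col1a1, Col1a2, Col3a1, Dlk1 and Pdgfrb, with a list median of -0.52. That share was 55.6%, against 11.7% of all genes in either direction and 4.96% lower. Of 9 measured mature adipocyte markers 2 rose, Fabp4, a fatty acid carrier, by 2.59 ± 0.31 (adjusted p = 5.87e-05) and Pnpla2, a triglyceride lipase, by 0.55 ± 0.11 (adjusted p = 0.00389), with a list median of 0.19. The 2 adipocyte markers were 22.2% of their list, against 6.88% of all genes higher. Of the lists for other cell types, 1 of 7 macrophage markers fell (Lyz2, 14.3%) and 0 of 5 endothelial markers passed. Of 5 epithelial markers 1 rose (Krt8, 20%). In lists this short 1 gene alone makes such a share. At 2 h Fabp4 had risen and Pdgfrb had fallen, 1 of 9 in each list (11.1%, against 3.18% of all genes). The part of these marker shifts in the changes of Mvd, Dhcr7, Fasn and Fads2 was not tested.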

How the data were processed

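RNA of 16 samples (4 groups of 4) was measured on 2-colour arrays, sample in Cy5 and a pool in Cy3. The deposited values are log ratios per probe, taken here as log2; per the labels the authors used limma, and the sources used here do not state their log base, background correction or normalization. Single-gene probes numbered 29456 (19640 genes), with 760 naming several genes and 8251 none; 28735 matched a RefSeq table by Entrez identifier and 721 kept the platform symbol. With limma 3.58.1 in R 4.3.3 the 4 group means were fitted over all arrays and 38467 probes (residual degrees of freedom 12, prior 3.19), with Benjamini-Hochberg adjustment per contrast. Each probe needed values on 3 arrays per group, which all had. The probe quoted for a gene had the lowest p of limma's F test over the 4 groups. The number of arrays limits the precision. Members, lists and tests were chosen with earlier results of these data known. Arrays are listed for the control genes, Fasn, Acaca, Scd1 and members passing at 36 h by rule, and for others after their values were seen. The code was tested on simulated data.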

Additional observations from a re-analysis of the deposited data

Results flagged for a closer look

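Among 140 groups of 4 arrays tested for a value far from the others, 8 were marked, where chance marks about 1 in 20. At 2 h Idi1 was 0.477 in DMSO replicate 1 (others 0.041 to 0.111), and Cyp51 was 0.123 in dex replicate 2 (others -0.21 to -0.176) and 0.519 in DMSO replicate 1 (others -0.012 to 0.022). Scd1 was -4.1 in DMSO replicate 4 at 2 h (others -0.322 to -0.041). At 36 h Elovl6 was -0.127 in DMSO replicate 2 (others -0.189 to -0.18) and Acsl3 was -0.116 in DMSO replicate 1 (others 0.018 to 0.031). The median over the sterol enzymes was 0.11 in dex replicate 2 at 2 h (others -0.017 to 0.0042) and 0.311 in DMSO replicate 1 at 2 h (others 0.012 to 0.057).

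The dex effect at 36 h minus that at 2 h passed limma's test for 0 members and for 5 genes of the wider and check lists. It was 0.612 for Ebp (adjusted p = 0.0417), 0.659 for Lpcat3 (adjusted p = 0.00294), 0.551 for Elovl1 (adjusted p = 0.0252), -0.527 for Elovl4 (adjusted p = 0.0409) and 0.744 for Fkbp5 (adjusted p = 0.032). Lpcat3 passed without any 1 of the 16 arrays, while each of the other 4 lost its call without some single arrays, with adjusted p up to 0.107 for Ebp, 0.0682 for Elovl1, 0.0985 for Elovl4 and 0.0809 for Fkbp5.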

How the results depend on the processing

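The calls of Mvd, Fasn and Fads2 at 36 h held in all 28 alternatives, with log2 changes of 0.46 to 1.12, 0.41 to 0.52 and -0.996 to -0.483. Dhcr7 ranged from 0.30 to 0.92 (adjusted p 6.46e-05 to 0.31) and also lost its call under the authors' log-odds rule. Over 6533 values of single genes, 6221 kept their side of the threshold, 157 lost it, 155 gained it and 0 passed with the sign turned. The count of members at 36 h was 26 with array weights (46.3% of all genes passed then) and 20 (21.5%) without dex 36 h replicates 2 and 4, a choice made, like that without replicates 1 and 3, after seeing the data; without 1 and 3 it was 5 (4.54%). At 36 h it was 6 with only 8 arrays (23.2%), quantile (22.1%) or scale normalization (21.2%). Acss2 passed in each of these, Srebf1 with only 8 arrays and Srebf2 under either normalization. At 2 h the count was 1 with only 8 arrays (1.5% of all genes), quantile (3.38%) or scale normalization (3.48%). Between times in DMSO it was 1 with only 8 arrays (0.479% of all genes) or array weights (2.55%). It was 2 without dex 36 h replicates 1 and 3 (1.47%) or 2 and 4 (1.66%). Between times in dex it was 1 under quantile (4.17% of all genes) or scale normalization (4.72%) and 13 with array weights (20.2%). It was 2 without replicates 1 and 3 (0.672%) and 9 without 2 and 4 (6.93%). For the difference of the dex effects it was 1 under quantile (7.15% of all genes), scale (7.17%) or the mean of a gene's probes (2.9%). It was 4 with array weights (9.4%), 2 without 1 and 3 (1.97%) and 5 without 2 and 4 (8.18%). That for 8 arrays could not be fitted. The fatty acid median at 36 h was 0.0735 without 2 and 4. Leaving out 1 replicate in turn gave 2 to 3 members at 2 h, 3 to 10 at 36 h (10 without dex 36 h replicate 2), 0 to 1 in DMSO and 0 to 3 in dex between times, and 0 to 2 for the difference. The shares of all genes were 2.42% to 3.98% at 2 h and 6.56% to 15.7% at 36 h. They were 0.611% to 2.7% in DMSO and 0.85% to 4.19% in dex between times, and 2.32% to 4.64% for the difference. The medians then ran from 0.1322 to 0.3235 (sterol, 36 h), -0.0728 to -0.0054 (fatty acid, 36 h), -0.3188 to -0.1838 (sterol, DMSO over time) and -0.0449 to 0.103 (fatty acid, DMSO over time). Same-numbered samples deviated together at r = -0.103 to 0.344, above 0.1 in 5 of 24 pairs. The numbers were not taken to pair samples. Differently numbered samples were not set beside these, so the values cannot decide on pairing. With the replicate block 2 members passed at 2 h (2.87% of all genes), 4 at 36 h (10.1%) and 0 in the other contrasts. Of all genes, 0.896% in DMSO and 1.75% in dex then passed between times, and 2.71% for the difference. Signal over background was not analysed here, and the cause of these shifts was not tested.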
